A study of Mus musculus with 4 samples.

Results

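Ache, the gene of acetylcholinesterase, and Colq, the gene of the collagen that tethers this enzyme at the neuromuscular junction, were followed across 4 arrays that each measured transcripts in the total RNA of mouse skeletal muscle. They were taken by gene symbol, as the probe sets (groups of probes that report 1 transcript) whose only symbol in the platform's gene table is Ache or Colq. This gave 1 probe set for each gene, 2 of the 10833 probe sets with a single symbol, or 2 of 8251 genes. The array titles place 2 arrays in a group coded J (replicates 1a and 1c) and 2 in a group coded NJ (replicates 1a and 1d), all at 0 h, and all 4 share the code NMJ-Ctr. The titles do not spell out these codes. The series bears the name of the neuromuscular junction, and no label gives a strain, age, sex or treatment. No label ties an array to an animal, so p-values measure only the spread between these samples, which may be technical.

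Acetylcholinesterase splits acetylcholine in the synaptic cleft and so ends each signal from motor nerve to muscle fibre. At the junction most of the enzyme is held in the basal lamina as an asymmetric form, in which tetramers of its catalytic subunits are joined to a triple-helical tail of ColQ. The tail binds perlecan in the basal lamina and the receptor kinase MuSK on the fibre. Muscle nuclei beneath the nerve ending are known to transcribe both genes. Alternative splicing gives acetylcholinesterase subunits with different ends, of which 1 kind joins ColQ. Which splice forms the probes report is not given in the sources used here, so the forms cannot be told apart.

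The promoter is shown because the enzyme's gene has a GC-rich start with known sites for the zinc finger factors EGR1 and SP1, and these factors are also on the array. RefSeq's table for the mouse assembly GRCm38.p6 held an entry for Ache, matched by symbol, and none for Colq. The stretch is chr5:137288004-137288246 on the plus strand, the 243 bases that end just before the annotated start of the gene. Capitals mark matches, on either strand, to the EGR1 consensus (GCGGGGGCG or GCGTGGGCG) and the GC box core bound by SP1 (GGGCGG). They also mark the general E-box of basic helix-loop-helix factors (CANNTG). Neighbouring capitals can belong to overlapping matches.
Ache promoter: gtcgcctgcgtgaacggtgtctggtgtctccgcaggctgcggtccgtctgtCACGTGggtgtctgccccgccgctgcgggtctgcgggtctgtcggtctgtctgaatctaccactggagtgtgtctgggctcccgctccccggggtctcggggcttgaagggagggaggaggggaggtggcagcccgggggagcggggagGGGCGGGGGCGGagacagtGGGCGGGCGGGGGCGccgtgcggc

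The EGR1 consensus occurred 2 times in this stretch, from −41 to −33 and from −18 to −10 counted from the gene start. Such a match was present in 2.91% of the 32851 RefSeq promoters cut to the same length. The GC box core occurred 4 times, with 3 copies overlapping an EGR1 match, and was present in 31.8% of promoters. The stretch held 1 E-box, from −192 to −187, a motif present in 65.4% of promoters. The N-box (CCGGAA), the ETS factor site of synaptic muscle genes, had 0 matches here and was present in 11.5% of promoters. The stretch had a GC content of 73.3%, against a median of 52.3% over all promoters, and 5.23% of promoters had a higher one. A match describes the letters and does not show binding.

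Of the 4 arrays J 1a stood somewhat apart, and J 1c and NJ 1d were the most alike. Pearson's r across the probe sets tested, on the normalised log2 scale, was 0.761 between J 1a and J 1c, 0.763 between J 1a and NJ 1d, 0.775 for the pair of 1a arrays and 0.907 for J 1c with NJ 1d. Differences of J minus NJ had an SD of 1.17 across probe sets in the 1a pair and 0.74 in the other pair, and 79 probe sets had a 1a difference above 3 against 5 in the other pair. Across all probe sets the 2 differences had a correlation of r = 0.0017. Genes of 1 array are not independent replicates. The deposited numbers of both 1a arrays carry full digits and those of the other 2 are rounded to 1 decimal, so this format cannot be told apart from the pair.

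Ache had its highest signal on array J 1a and its lowest on NJ 1a. The deposited signals, linear intensities scaled by array, were 2280 on J 1a, 563 on J 1c, 386 on NJ 1d and 237 on NJ 1a. Both J arrays lay above both NJ arrays, but J 1c stood much nearer to the NJ arrays than to J 1a. Within J the signals differed 4.05-fold and within NJ 1.63-fold, while J 1c exceeded NJ 1d 1.46-fold. The step from J 1c down to NJ 1d was thus smaller than the spread within either group. Both Ache and Colq were above the limit set for testing, which corresponds to a signal of 117 after normalisation. The files used here carry no calls of presence or absence.

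On the log2(signal + 32) scale after quantile normalisation, which understates differences of dim genes, Ache averaged 10.26 ± 1.40 in J and 8.39 ± 0.69 in NJ (SD, n = 2 each). The difference was 1.87 ± 0.77 (standard error of the limma fit), or 3.66-fold on this scale, with a 95% interval from 0.13 to 3.61. In limma the unadjusted p was 0.0375, rank 132 of 9316 probe sets tested, and the Benjamini-Hochberg adjusted p was 0.999, so Ache did not pass the test. No probe set passed in either direction (0% higher and 0% lower in J), and 1.26% were higher at an unadjusted p under 0.05. Groups that did not overlap, with J above NJ as for Ache, were found for 13.6% of probe sets. The exact two-sided permutation test gave p = 0.333 for Ache, the smallest p that 2 arrays against 2 allow. The labels name only skeletal muscle as the source, and in RNA pooled over cells fewer cells of a type and less RNA per cell cannot be told apart.

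Colq ran the other way on the 1a arrays. Its deposited signals were 1344 on NJ 1a, 826 on J 1c, 456 on NJ 1d and 428 on J 1a. The groups overlapped, since NJ held both the highest array and one close to the lowest. NJ 1d and J 1a were nearly equal. The signals differed 1.93-fold within J and 2.95-fold within NJ, and the extremes differed 3.14-fold. On the normalised log2 scale Colq averaged 9.22 ± 0.76 in J and 9.76 ± 0.98 in NJ (SD, n = 2 each). The difference was −0.54 ± 0.68, with a 95% interval from −2.08 to 1.0 (limma, unadjusted p = 0.452, adjusted p = 0.999; exact two-sided permutation p = 0.667). The interval spans 0 widely, so these arrays settle no direction for Colq.

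**Figure D1:**
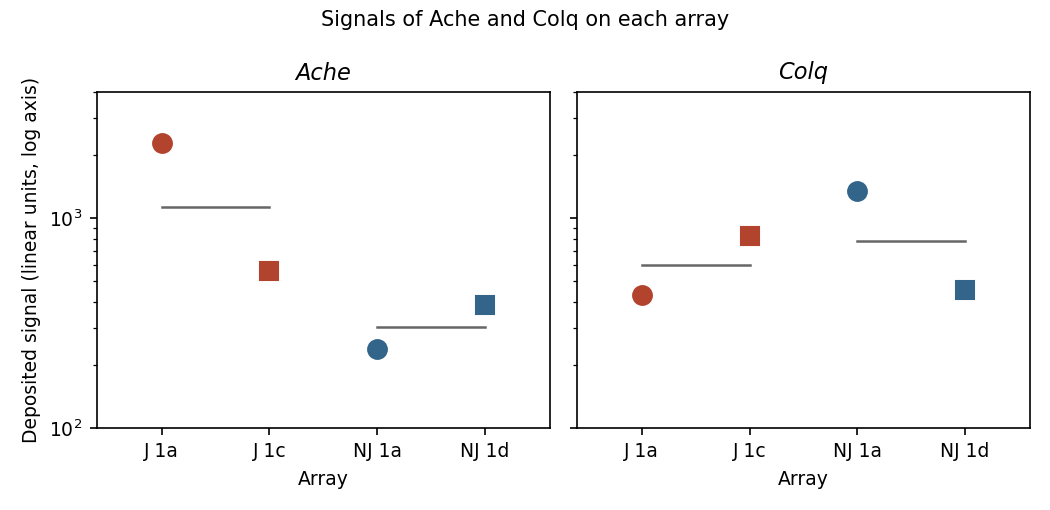
Deposited signals of Ache (left) and Colq (right) on the 4 arrays, with signal in linear units on a log axis. Red marks J and blue NJ, circles mark the 1a arrays and squares the others, and each grey line is the geometric mean of a group of 2. Ache runs from 2280 on J 1a to 237 on NJ 1a, while the highest Colq signal is 1344 on NJ 1a.

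The 2 differences that can be formed from separate arrays did not give the same size for Ache and gave opposite signs for Colq. On the log2 scale Ache was 3.35 higher on J 1a than on NJ 1a, and 0.40 higher on J 1c than on NJ 1d. Both were positive, as were both differences of 25% of the probe sets tested. The 1a difference of Ache was exceeded by 28 probe sets, or 0.301%, whereas 24.5% exceeded its difference in the other pair. For Colq the 1a pair gave −1.77 and the pair of J 1c and NJ 1d gave 0.69. The gap between the 2 differences was 2.95 for Ache and 2.46 for Colq, against a median of 0.80 over all probe sets. Gaps were smaller than these in 95.8% of probe sets for Ache and 91.3% for Colq.

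**Figure D2:**
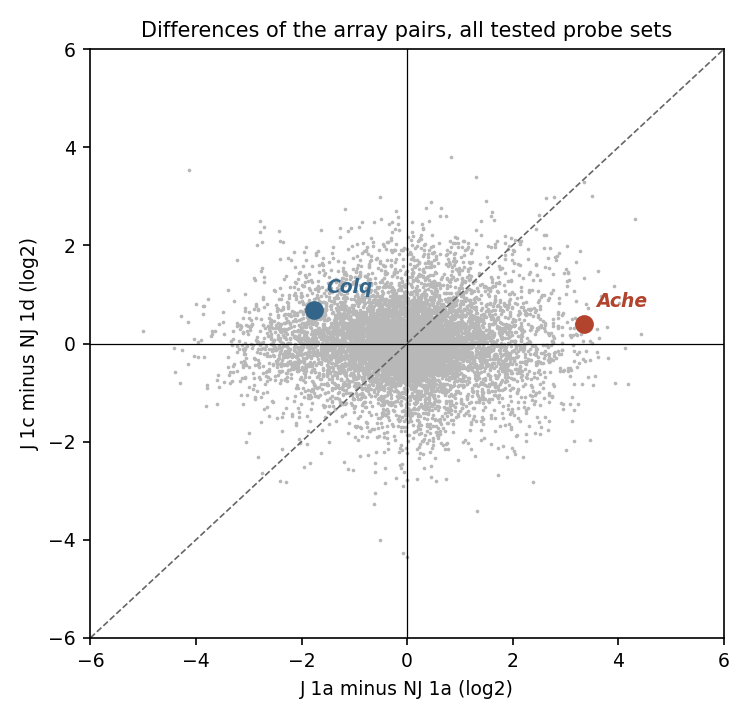
Difference of J minus NJ (log2) in the 1a pair (x axis) and for J 1c minus NJ 1d (y axis) for the tested probe sets, shown as grey points, with 1 outside the plotted range. The dashed line marks equal differences. Ache lies at 3.35 and 0.40, far to the right but close to 0 on the y axis, and Colq at −1.77 and 0.69.

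The Ache difference rested largely on the 1a arrays. It was 0.88 without J 1a, 1.38 without NJ 1a, 2.36 without NJ 1d and 2.86 without J 1c, positive each time and with a lowest limma adjusted p of 0.40. With a term for the array pair it was 1.87 ± 0.65 (limma, unadjusted p = 0.0057, adjusted p = 0.538). With this term 2.78% of probe sets were higher in J at an unadjusted p under 0.05, and 0.0429% in each direction passed after adjustment. That fit leaves 1 residual degree of freedom. For Colq the difference was −0.0001 without J 1a and 0.15 without NJ 1a, and −1.07 and −1.23 without J 1c and NJ 1d.

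The enzyme and its tail were also set against each other within each array. The log2 value of Ache minus that of Colq was 2.57 on J 1a, −0.48 on J 1c, −0.19 on NJ 1d and −2.55 on NJ 1a. The zero point of this quantity has no meaning, because 2 probe sets are not on a common scale, but its change between arrays does not need one. Its extremes were both 1a arrays, while J 1c lay slightly below NJ 1d, so the groups overlapped. The quantity was 2.41 higher in J than in NJ on average, made of 5.11 in the 1a pair and −0.30 in the other pair (exact two-sided permutation p = 0.667). It ranged from 0.88 without J 1a to 3.93 without J 1c. A difference between the responses of the 2 genes was therefore not shown.

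The genes around the enzyme at the cholinergic synapse were mixed. Of 16 listed, 10 were on the array and 7 exceeded the brightness limit for testing. None passed limma over all probe sets, and none had an unadjusted p under 0.05. Of the 7, 4 differences were positive and 3 negative, with a median of 0.20 against −0.0096 over all probe sets tested, and both J arrays lay above both NJ arrays for 3, against 13.6% of all probe sets and with none the other way. Since members that passed the brightness limit may have done so through J alone, this count supports nothing about the list. Bche, the related butyrylcholinesterase, was too dim to test, as were Slc18a3, the vesicular acetylcholine transporter of the nerve ending, and Musk, the kinase that the ColQ tail binds. Prima1, the membrane anchor of the enzyme in brain, Chat, the enzyme that makes acetylcholine, and Slc5a7, the choline transporter, had no probe set named for them, and neither did Lrp4, Dok7 and Scn4a.

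Among the receptor subunits, Chrna1, which carries most of the acetylcholine binding site, had deposited signals of 515 on J 1a, 1777 on J 1c, 44.8 on NJ 1a and 404 on NJ 1d. Its differences were 2.88 in the 1a pair and 1.84 in the other pair, a smaller gap than that of Ache, but the NJ 1a value lay below the limit set for testing. The mean difference of Chrna1 was 2.36 ± 1.05 (limma, unadjusted p = 0.0503, adjusted p = 0.999). Chrng, the fetal subunit, differed by 0.92 ± 0.70, and by −0.40 at its other probe set. The delta and beta subunit genes, Chrnd and Chrnb1, differed by 0.50 ± 0.75 and −0.21 ± 0.71. Chrne, the adult subunit, differed by 0.20 ± 0.57 at its brightest probe set and by 1.64 and 2.80 at its others. Rapsn, which gathers receptors into clusters, differed by −0.16 ± 0.39. Agrn, the nerve's clustering signal, differed by −0.17 ± 0.90, and by −0.615 at its other probe set.

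Proteins that fold the ColQ triple helix or hold it in place were listed too. Of 12 genes 10 were tested, with 7 positive and 3 negative differences, a median of 0.065, and 0 past limma at either an adjusted or an unadjusted p under 0.05. The median was 0.49 in the 1a pair and −0.19 in the other. Serpinh1, the collagen chaperone HSP47, had deposited signals of 1315 on J 1a, 398 on J 1c, 98.9 on NJ 1a and 367 on NJ 1d. The order of the arrays was that of Ache, with NJ 1a below the limit set for testing. Serpinh1 differed by 3.51 in the 1a pair and 0.016 in the other, and by 1.76 ± 0.90 on average. Ppib, a prolyl isomerase of the endoplasmic reticulum, differed by 1.64 and −0.40 in the same pairs. The collagen prolyl hydroxylase subunits P4ha1, P4ha2 and P4hb differed by 0.097, −0.074 and 0.032 on average, although other probe sets of P4ha2 and P4hb differed by 0.76 and 0.15.

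The binding partners in the basal lamina and membrane were mixed. Hspg2, which encodes perlecan, had deposited signals of 321 on J 1a, 1211 on J 1c, 601 on NJ 1a and 1727 on NJ 1d. Both 1a arrays were low and each J array lay below the NJ array of its pair, with differences of −0.97 and −0.52 and a mean of −0.75 ± 0.78. Dag1, the dystroglycan that binds perlecan, differed by −0.34 ± 0.36, with both J arrays below both NJ arrays as for 12.8% of probe sets, and by 0.27 at its other probe set. Lamb2, the synaptic laminin chain, was highest on J 1a and lowest on NJ 1a, as Ache was. It differed by 1.07 in the 1a pair and −0.22 in the other, with a mean of 0.43 ± 0.51. Sdc4, a heparan sulfate proteoglycan, was also lowest on NJ 1a, and differed by 2.24 in the 1a pair and −1.98 in the other. The lysyl hydroxylase Plod3 differed by 0.023 ± 0.74 at its brightest probe set, with 0.64 in the 1a pair and −0.60 in the other. It differed by −0.17 at another probe set and by 0.50 at a dimmer probe set that was not tested. Plod1 and Plod2 had no probe set named for them.

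**Figure D3:**
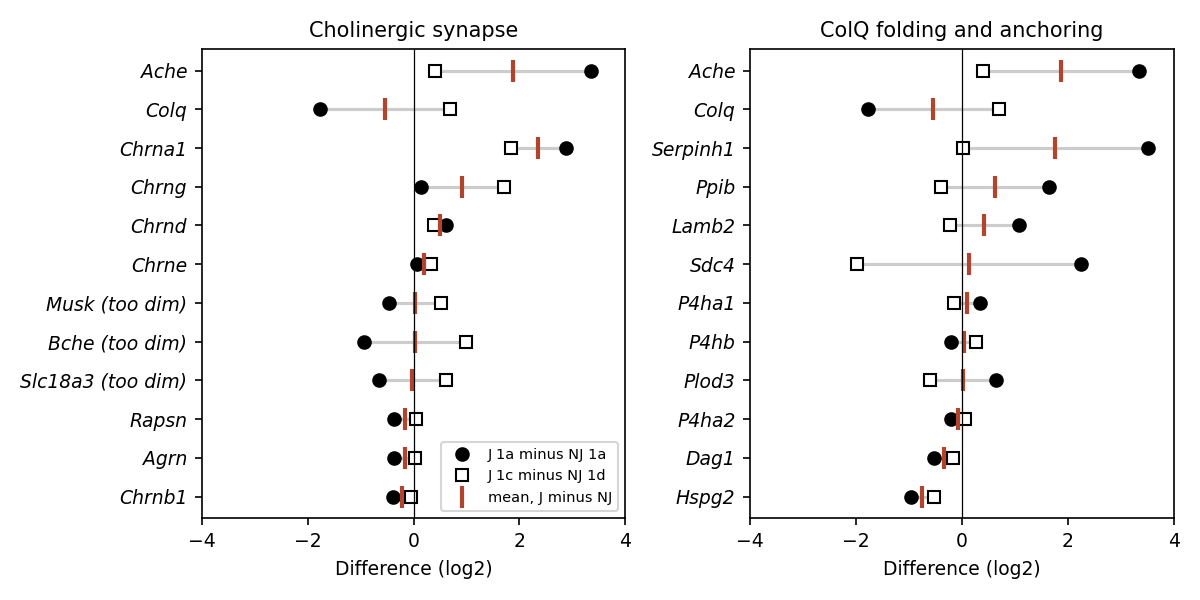
Differences of J minus NJ (log2) for genes of the cholinergic synapse (left) and of ColQ folding and anchoring (right), with Ache and Colq at the top of both. Filled circles are the 1a arrays, open squares J 1c minus NJ 1d, red bars their mean, and genes too dim to test are marked. Ache and Serpinh1 have wide spans with 1 end near 0, while both points of Chrna1 lie well above it.

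Of 12 transcription factors of muscle and synaptic genes, 10 were tested. Differences were positive for 7 and negative for 3, with a median of 0.31, and none passed limma over all probe sets. Nfatc1, a calcineurin-dependent factor, was the 1 with an unadjusted p under 0.05. Its deposited signals were 448 on J 1a, 221 on J 1c, 37.4 on NJ 1a and 38.4 on NJ 1d, so that both J arrays lay above both NJ arrays. Both NJ values were below the limit of 7.22 on the log2 scale that was set for the mean of a tested probe set, so Nfatc1 was tested only because J was high, and its fold rests on dim NJ signals. The difference of Nfatc1 was 2.27 ± 0.76 (limma, unadjusted p = 0.0147, adjusted p = 0.999), with 2.83 and 1.71 in the pairs. Myog, the myogenic factor myogenin, differed by 1.02 ± 0.71, with 0.39 in the 1a pair and 1.64 in the other.

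Of the factors whose sites were looked for upstream of Ache, Sp1 differed by 0.59 ± 0.47. Its difference was −0.097 in the 1a pair, where the Ache difference was the larger, and 1.27 in the other. Egr1, named here for its site and not for its rank, had deposited signals of 1788 on J 1a, 1366 on J 1c, 3072 on NJ 1a and 1457 on NJ 1d. The highest Egr1 signal thus fell on the array where Ache was lowest. Egr1 differed by −0.48 ± 0.48 on average, by −0.79 and −0.16 in the pairs, and by 0.60 at a dimmer probe set that was not tested. Whether Sp1 or Egr1 had a part in the Ache values was not tested.

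Profiles nearest to each gene were sought among the 8294 other tested probe sets with a single symbol, by Euclidean distance over the 4 arrays after centring each probe set on its own mean. The 5 nearest to Ache were Ccn3, a matricellular protein (distance 0.42), Acr, the sperm protease acrosin (0.46), R3hcc1 (0.48), C9, a terminal complement component (0.498), and Csf2, a cytokine of myeloid cells (0.50). The median distance was 2.59. All 5 had their highest signal on J 1a and their lowest on NJ 1a. They differed by 2.77 to 3.25 in the 1a pair and by −0.17 to 1.01 in the other. Serpinh1 was not among these 5. Csf2 was below the limit set for testing on every array but J 1a, so it was tested only through J 1a. C9 and R3hcc1 were below that limit on NJ 1a, with deposited signals of 89.0 and 57.8. Acr, with 133 on NJ 1a, was close to the limit there after normalisation.

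The 5 profiles nearest to Colq lay closer, at distances of 0.12 to 0.21 against a median of 1.63. They were Mlst8, a subunit of the mTOR kinase complexes, Dnal4, a dynein light chain, Bmp5, a bone morphogenetic protein, Dpysl4, and Myrf, a transcription factor of myelinating glia. Each was highest on NJ 1a and second on J 1c. Bmp5 was below the limit set for testing on J 1a and NJ 1d, with deposited signals of 79.7 and 77. It was thus tested only through NJ 1a and J 1c. Dpysl4, with 134 on J 1a, was below that limit there after normalisation. A likeness over 4 arrays is given as a description only.

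**Figure D4:**
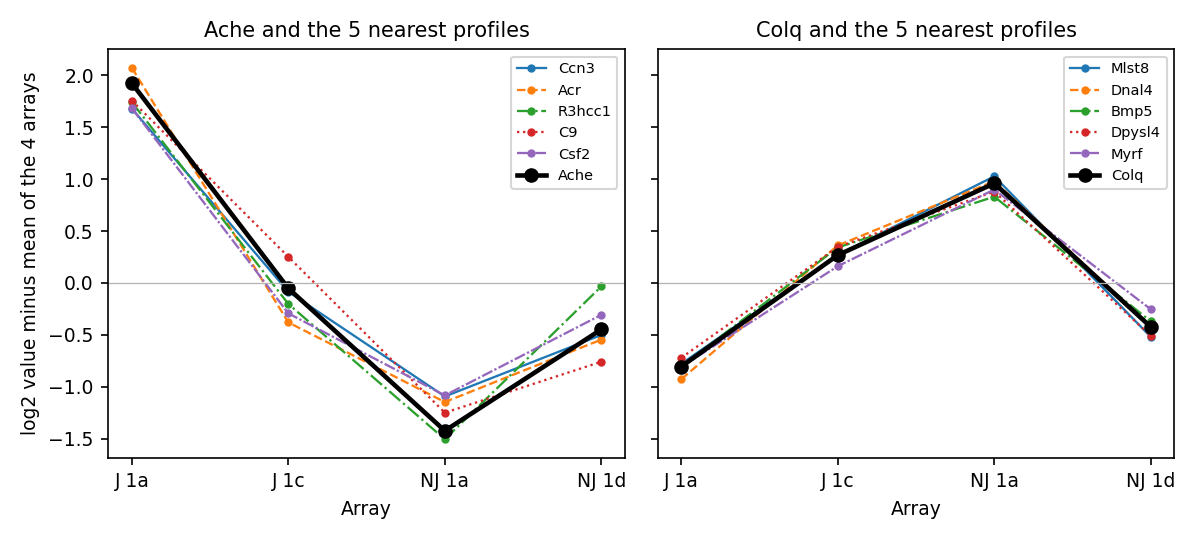
Normalised log2 values of Ache (left) and Colq (right), black, with their 5 nearest profiles, coloured, each minus its mean over the 4 arrays. Lines only join the values of a gene, since the arrays have no order. Ache runs from 1.92 on J 1a to −1.42 on NJ 1a, and Colq peaks at 0.96 on NJ 1a.

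Markers of the cells that could carry these transcripts were summed on each array as normalised signal. Acetylcholinesterase is also made by motor neurons and, in rodents, by red cell precursors. The 10 motor nerve markers of 10 listed summed to 5975 on J 1a against 2254 on J 1c, 3031 on NJ 1a and 2752 on NJ 1d. Of the 7 tested, 3 differences were positive and 4 negative, with a median of −0.15. The 3 with the smallest p, described next, were the positive ones. Snap25, a vesicle fusion protein of nerve endings, had a deposited signal of 904 on J 1a and 38.6 to 71.0 on the other arrays. All but J 1a were below the limit set for the mean, so that Snap25 was tested only through J 1a. Prph, the filament protein peripherin, had 823 on J 1a and 145 on NJ 1d, and was below that limit on J 1c and NJ 1a. It differed by 3.09 in the 1a pair and −1.23 in the other. Its dimmer probe set, which was not tested, differed by 0.65 on average. Uchl1, a neuronal ubiquitin hydrolase, differed by 1.15 in the 1a pair and 2.04 in the other, and was below the limit on NJ 1d. Of red blood cell markers 4 of 10 were measured, with sums of 35270 on J 1a and 21680 to 27490 on the other arrays. Most of each sum was Hba-a1, with deposited signals of 16397 to 40486, against at most 997 for the other measured markers. Of the 4 measured, 1 was too dim to test. Alas2, the erythroid enzyme of haem synthesis, differed by 1.19 in the 1a pair and −0.021 in the other, Slc4a1, the red cell anion exchanger, by 1.72 and −0.94, and Hba-a1, an alpha globin, by 0.32 and −0.20. No motor nerve or red cell marker passed limma, and their part in the Ache difference was not tested. Without J 1a the Ache difference was 0.88, but this also drops the highest Ache signal, so it says nothing about these markers.

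Fast fibre markers had deposited signals of at least 1300.8 on every array, and Acta1, the skeletal actin, had 32990 to 207533. Slow fibre markers ranged from 30.9 to 41797.1, and 2 of the 9 were too dim to test. The 12 fast fibre markers summed to between 557100 on J 1c and 774700 on NJ 1a, and the 9 slow fibre markers to between 19170 on J 1c and 45790 on J 1a, so both sums were lowest on J 1c. Of the 12 fast fibre genes, all tested, 5 differences were positive and 7 negative, with a median of −0.12. Actn3, Atp2a1 and Myh4 had the smallest p, with differences of −1.18 ± 0.69, −1.31 ± 0.80 and −1.13 ± 0.72. These rested on J 1c minus NJ 1d (−2.21, −2.48 and −2.14), against −0.16, −0.14 and −0.13 in the 1a pair. Other probe sets of Actn3, Atp2a1 and Myh4 differed by −0.42, 1.23 and 0.27. Of the 7 slow fibre genes tested, 3 differences were positive and 4 negative, with a median of −0.41. The smallest p were those of Fabp3, Myh7 and Atp2a2, with −0.52 ± 0.39, −1.13 ± 0.95 and −0.72 ± 0.83. In the 1a pair these differed by −0.025, 0.45 and −0.67, and in the other pair by −1.02, −2.71 and −0.78. Another probe set of Myh7 differed by −0.18. Schwann cell markers, 6 of 8 measured, summed to 5369 on NJ 1a, where Colq was highest, and to 3511 to 4631 on the other arrays. Of these 6, all tested, 2 differences were positive and 4 negative, with a median of −0.23. The median was −0.47 in the 1a pair and 0.056 in the other. S100b, a calcium-binding protein of Schwann cells, had the smallest p of the list. It differed by −1.95 in the 1a pair and −0.41 in the other. The part of these markers in the values of Colq was not tested. No measured marker of any of these lists had a deposited signal of 0. The lowest signal of any probe set, controls left out, was 0.4, so this shows nothing about detection.

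**Figure D5:**
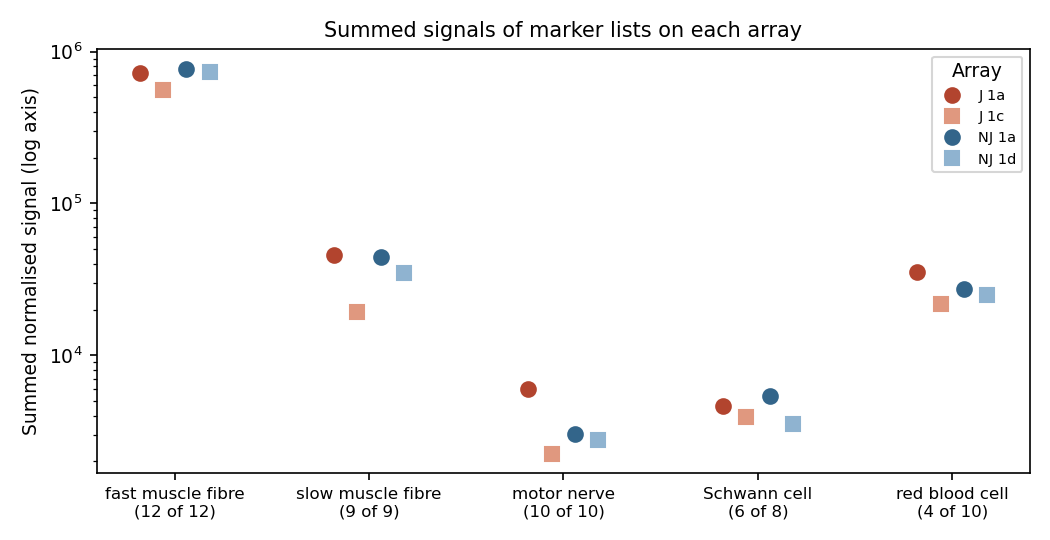
Summed normalised signal (log axis) of the marker lists of fast and slow fibres, motor nerve, Schwann cells and red blood cells on each array, with the number of measured of listed markers under each name. Circles are the 1a arrays and squares the others, in red shades for J and blue shades for NJ. The motor nerve sum of 5975 on J 1a lies above the 2254 to 3031 of the other arrays.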

How the data were processed

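The authors deposited linear intensities of 12488 probe sets on 4 arrays. Which software made them is not given in the sources used here. Trimmed by 2% at each end, the column means were between 800.5 and 800.6, as after scaling to a common level. All columns were quantile normalised as log2(value + 32), 66 control probe sets were left out, and the 9316 of 12422 probe sets whose mean was above the 25th percentile were tested. The test of J against NJ used limma 3.58.1 in R 4.3.3, with lmFit and a trended eBayes on 2 residual degrees of freedom, with Benjamini-Hochberg adjustment over all tested probe sets and a threshold of 0.05. Single values were tested by exact permutation over arrays. Scripts were tested on simulated data. Names came from the platform's gene table, in which 10833 probe sets had 1 symbol, 396 several and 1193 none. For a listed gene the brightest probe set was used.

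The genes and lists were chosen with earlier results of these data known. Named were every gene of the cholinergic and ColQ lists, up to 3 members of each other list with the smallest unadjusted p, and the 5 nearest profiles of each gene. Markers of fast and slow fibres, motor nerve, Schwann cells and red blood cells served as cell type lists. Alternatives covered normalisation, pseudocounts of 1 and 100, the filter, the trend, an array-pair term, the mean of a gene's probe sets and leaving out each array. Replicate labels share only 1a between groups. The number of arrays limits the precision. Promoters came from RefSeq (GRCm38.p6), and figures from matplotlib 3.10.9 under Python 3.11.15.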

Additional observations from a re-analysis of the deposited data

How the results depend on the processing

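The Ache difference kept its sign and stayed short of the threshold under all 9 alternatives that kept every array (1.69 to 1.98 on the log2 scale, the lowest with a pseudocount of 100 and the highest with a pseudocount of 1) and with each array left out (0.88 to 2.86). The Colq difference ranged from −0.56 to −0.38 with every array kept and from −1.23 to 0.15 when arrays were dropped singly. Its sign turned without NJ 1a, at 0.15, where limma gave an adjusted p of 0.9999 over all probe sets, and the cause was not tested. The difference between the responses of Ache and Colq ranged from 2.18 to 2.54 over the 5 alternatives run for it with every array kept, and from 0.88 to 3.93 when arrays were dropped singly. With 2 arrays a group its exact permutation test cannot pass. The count of probe sets past the threshold was 0 in limma, with 199 at an unadjusted p under 0.05, and 0 with each array left out. It was 8 with the array-pair term, 4 in each direction, and neither Ache nor Colq was among them. Each gene has 1 probe set, so taking the mean of probe sets changed nothing by construction. No analysis paired by replicate label was possible, because the groups share only the label 1a. The array-pair term sets J 1c beside NJ 1d by number format, not by a shared label. Signals carry no presence calls, so the limit for dim genes is the filter alone.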
